A study of Mus musculus with 36 samples.

Results

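Gene expression was compared between the diaphragm and the limb muscles of mice transgenic for alpha tropomyosin slow, a nemaline myopathy mouse model. All arrays of transgenic muscle were taken, 18 of the 36 arrays of the series, as 4 arrays of transgenic diaphragm and 14 arrays of transgenic limb muscle. The limb arrays were 3 of extensor digitorum longus (EDL), 4 of gastrocnemius (GAS), 3 of plantaris (PLT) and 4 of tibialis anterior (TA). Each muscle was sampled at 7 and at 10 months of age, with 2 arrays per age except EDL and PLT at 10 months, which had 1. The other 18 arrays came from the same muscles and ages of wild-type mice, 4 of diaphragm and 14 of limb muscle, and were used side by side. Per the labels each array carried RNA pooled from 3 to 5 mice, snap-frozen muscle having been the source. Strain, promoter and form of the transgene were not stated in the labels, nor whether arrays with the same label were separate pools, so p-values measure the spread between these arrays, which may in part be technical. The labels say of 1 limb array, EDL at 10 months, that its scan file was only partly recovered.

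Nemaline myopathy is a disease of the thin filament of skeletal muscle, in which rod-shaped bodies derived from the Z-disc collect in the fibres. Alpha tropomyosin slow, the product of Tpm3, lies along the actin filament of slow fibres and takes part in switching contraction on and off with calcium. The diaphragm contracts without rest and relies on oxidative metabolism, whereas limb muscles such as tibialis anterior consist mostly of fast glycolytic fibres. The diaphragm is also a thin sheet between the chest and the abdomen, covered by mesothelium and lying on the liver.

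The arrays were Affymetrix MG_U74Av2 chips, on which a probe set reports 1 transcript as a signal without read depth, so the number of arrays limits the precision. Signals were scaled to a trimmed mean of 500 per array. Tests covered the 8756 probe sets, for 6464 genes, with a signal of 100 or more on no fewer than 4 of the 18 transgenic arrays. Differences are given as log2(signal + 50) of transgenic diaphragm minus the equally weighted mean of the 4 transgenic limb muscles, ± SE, with limma p-values adjusted by Benjamini-Hochberg over all 8756 probe sets. Between 57.4 and 64.6% of probe sets reached 100 on the transgenic arrays, and arrays of the same group correlated at 0.914 to 0.957. The muscle genes Acta1, the skeletal alpha actin, and Ckm, the muscle creatine kinase, were high on all transgenic arrays, with Acta1 at 29040 to 85870 in diaphragm and 24890 to 62290 in limb muscle. One diaphragm array, replicate 2 at 7 months, stood apart in genes of the liver. The summed signal of 88 hepatocyte genes was 369800 on that array, against 27050 to 66570 on the other 3 diaphragm arrays and 13480 to 23960 on the 14 limb arrays. Genes of the hepatocyte list are therefore given apart at the end, with other genes that followed that array. The counts over all probe sets and genes include both.

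In the transgenic diaphragm 7 of 13 fast fibre genes and 13 of 28 genes of glycolysis and glycogen metabolism were lower than in the transgenic limb muscles. Of 28 genes of fatty acid uptake and oxidation 16 were higher. Of 34 tested homeobox and T-box genes 4 were higher in diaphragm, among them Shox2 and Hoxa5. The 7 that were lower included Hoxc9, Hoxa11 and Hoxa10, at low signal in diaphragm, which entered the test only through the limb arrays. Some mesothelial, macrophage, adipocyte and red cell genes were also higher in it than in the mean of the limb muscles. Of the 8756 probe sets 826 passed an adjusted p of 0.05, which is 9.43%, with 452 higher (5.16%) and 374 lower (4.27%) in diaphragm. Without the hepatocyte list and probe sets that followed diaphragm replicate 2 of 7 months, 329 higher and 371 lower remained. The other counts here include them. With 1 probe set per gene, 660 of 6464 genes passed (10.2%), 358 of them higher (5.54%) and 302 lower (4.67%). The counts of all gene lists are to be read beside these shares. All 4 diaphragm arrays lay above all 14 limb arrays for 176 probe sets (2.01%) and below them for 137 (1.56%), 313 in all (3.57%), of which 300 also passed the threshold (3.43%). Of the 826 probe sets 813 had the same sign against each of the 4 limb muscles. That is largely built in, as they were chosen on the mean of these contrasts, which share the diaphragm arrays. Against all 4 muscles 90 probe sets passed as higher and 55 as lower. Arrays with the same replicate number deviated together, and with that number as a block 1257 probe sets passed, 643 higher and 614 lower, among them all 826. Without diaphragm replicate 2 of 7 months the count fell to 531, of which 493 were among the 826, and without diaphragm replicate 2 of 10 months it was also 531, of which 497 were.

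The starts of 4 genes from both ends of the comparison are shown, Myh4 and Phkg1 as leading falls and Shox2 and Upk3b as leading rises. The sequences are from RefSeq on build GRCm38.p6 and run from 250 bases before to 50 bases after the annotated start of transcription, 5′ to 3′ on the gene's strand. Capitals mark matches on either strand to TATAAA, the core of the TATA box, or CANNTG, the E-box bound by basic helix-loop-helix factors such as the myogenic regulators.
Myh4 promoter, chr11:67237562-67237861, plus strand: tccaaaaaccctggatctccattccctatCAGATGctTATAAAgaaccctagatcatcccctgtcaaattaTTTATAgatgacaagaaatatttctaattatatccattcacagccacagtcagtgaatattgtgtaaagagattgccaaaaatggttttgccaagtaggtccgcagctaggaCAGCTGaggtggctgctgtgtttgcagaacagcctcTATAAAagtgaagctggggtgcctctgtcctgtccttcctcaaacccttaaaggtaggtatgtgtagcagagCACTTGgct
Phkg1 promoter, chr5:129879039-129879338, minus strand: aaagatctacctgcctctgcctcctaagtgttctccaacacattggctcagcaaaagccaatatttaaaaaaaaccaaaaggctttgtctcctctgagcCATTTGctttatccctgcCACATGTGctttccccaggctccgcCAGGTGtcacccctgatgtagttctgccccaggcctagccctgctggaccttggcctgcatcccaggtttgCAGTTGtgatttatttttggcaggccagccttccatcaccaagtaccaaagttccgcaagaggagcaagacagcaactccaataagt
Shox2 promoter, chr3:66981722-66982021, minus strand: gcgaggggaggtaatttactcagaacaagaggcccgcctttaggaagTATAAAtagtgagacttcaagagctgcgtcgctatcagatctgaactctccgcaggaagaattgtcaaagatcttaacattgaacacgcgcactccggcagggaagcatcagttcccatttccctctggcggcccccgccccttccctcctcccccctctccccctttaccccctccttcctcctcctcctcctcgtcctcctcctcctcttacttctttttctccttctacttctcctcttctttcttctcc
Upk3b promoter, chr5:136038246-136038545, plus strand: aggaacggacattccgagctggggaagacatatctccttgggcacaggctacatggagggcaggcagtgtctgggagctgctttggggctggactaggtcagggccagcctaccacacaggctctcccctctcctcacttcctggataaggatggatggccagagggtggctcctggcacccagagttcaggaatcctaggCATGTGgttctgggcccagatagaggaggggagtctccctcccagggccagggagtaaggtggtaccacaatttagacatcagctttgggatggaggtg
Myh4 had 3 matches to TATAAA and 3 to CANNTG, and Phkg1 had 0 and 5, of which 2 overlapped. Shox2 had 1 match to TATAAA and 0 to CANNTG, and Upk3b had 0 and 1. No base lay in a match to both motifs in these 4 windows. Among 32851 promoters of the same length 13.6% held TATAAA and 72.3% held CANNTG. The matches describe the letters only and are neither binding sites nor causes of the differences below.

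Actn3 and Myh4, genes of fast-twitch fibres, were among the largest falls. Actn3, the alpha-actinin of the Z-disc in fast fibres, had signals of 3702 and 3318 at 7 months and 4615 and 3126 at 10 months in the diaphragm, against a lowest of 12520, a median of 27560 and a highest of 40980 in the limb muscles. All 4 diaphragm arrays lay below every limb array, and the limb mean was 7.14 times the diaphragm mean. The log2 difference was -2.78 ± 0.17 (adjusted p = 1.01e-08 in limma), and it passed against each of the 4 limb muscles. Myh4, the heavy chain of type 2B myosin, had 6154, 7994, 6433 and 9593 in the diaphragm, against 20240, 33890 and 52090 as the lowest, median and highest limb array. The groups again did not overlap, and Myh4 fell by 2.12 on the log2 scale (SE 0.15, adjusted p = 3.99e-08).

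**Figure D1:**
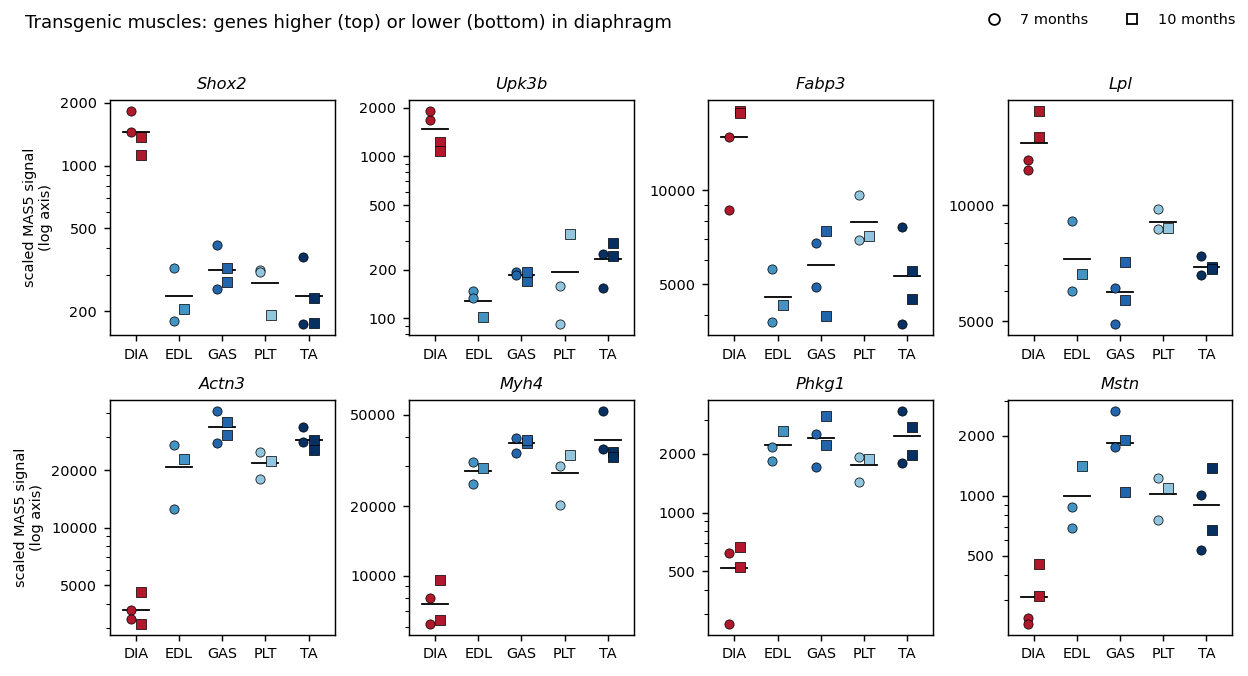
Scaled MAS5 signal (log axis) of 8 genes on each transgenic array, by muscle: DIA, diaphragm; EDL, extensor digitorum longus; GAS, gastrocnemius; PLT, plantaris; TA, tibialis anterior. Circles are 7-month and squares 10-month arrays, and the line is the mean. Diaphragm lies above the limb arrays for Shox2, Upk3b and Lpl, overlaps them on 1 array for Fabp3, and lies below them for Actn3, Myh4, Phkg1 and Mstn.

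Of the 13 tested genes of fast fibre sarcomere and calcium handling 7 fell and 0 rose (median -0.50, against -0.01 for all genes). Myoz1, a Z-disc protein of fast fibres that binds calcineurin, fell by 1.20 ± 0.10, with 6336 to 8001 in diaphragm against 13750 to 22580 in limb muscle. Ckm fell by 0.97 ± 0.12 without overlap of the groups. Pvalb, the calcium buffer of fast fibres, fell by 0.68 ± 0.14, and Casq1, the calcium store protein of fast fibres, by 0.65 ± 0.13. Both overlapped between the groups. A second probe set of Pvalb gave -2.53 ± 0.16, so the size of its change depended on the probe set, and a second, dim probe set of Myh4 gave -0.04 ± 0.24. Probe sets of myosin heavy chains and creatine kinase can read related family members.

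Slow fibre genes were higher in diaphragm than in tibialis anterior, and none of them passed against plantaris. Of 10 tested genes of slow fibre sarcomere and calcium handling 5 rose and 0 fell (median 0.67). Atp2a2, the calcium pump of slow fibres, had 5867, 4884, 7544 and 6272 in the diaphragm. In the limb muscles it had 413 to 962 on the TA arrays, 2673 to 5551 on the EDL arrays, 4035 to 6305 on the GAS arrays and 7668 to 10170 on the PLT arrays. Only TA and PLT lay apart from the diaphragm, TA below it and PLT above it. The log2 difference of 0.84 ± 0.14 (adjusted p = 0.000524) was made up of 3.11 against TA (adjusted p = 3.97e-09), 0.65 against EDL (adjusted p = 0.0572), 0.18 against GAS (adjusted p = 0.638) and -0.57 against PLT (adjusted p = 0.14).

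The other 4 slow genes that rose were Casq2, the slow and cardiac calcium store protein (0.79 ± 0.24), Tnnt1, slow troponin T (0.74 ± 0.20), Tnni1, slow troponin I (0.71 ± 0.21), and Myl2, the slow regulatory light chain (0.68 ± 0.17). Tnnt1 was 2.82 log2 units higher in diaphragm than in TA and -0.50 against PLT. A second probe set of Tnnt1 gave 0.50 ± 0.17 against the limb mean and did not pass (adjusted p = 0.0786). Tnni1 gave 2.62 against TA and -0.72 against PLT, and Myl2 gave 2.10 and 0.03. Casq2 differed in that TA was not the low muscle, and it passed only against GAS (1.11, adjusted p = 0.0277). Over the whole list 8 of 10 genes passed as higher in diaphragm than in TA (median 2.27), 0 than in EDL (median 0.68), 1 than in GAS (median 0.13) and 0 than in PLT (median -0.53). Myh7, the slow myosin heavy chain, had a difference of 0.65 that missed the threshold (adjusted p = 0.126) and was 2.44 against TA alone. The calls of Tnni1 and Casq2 were lost on leaving out any of 13 and 10 of the 18 arrays. Tnnt1 lost its call without diaphragm replicate 2 of 7 months or of 10 months (highest adjusted p = 0.0933), and Myl2 without diaphragm replicate 2 of 10 months (adjusted p = 0.0976). Of the list 2 rose without diaphragm replicate 2 of 7 months, and 1 without diaphragm replicate 2 of 10 months.

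**Figure D2:**
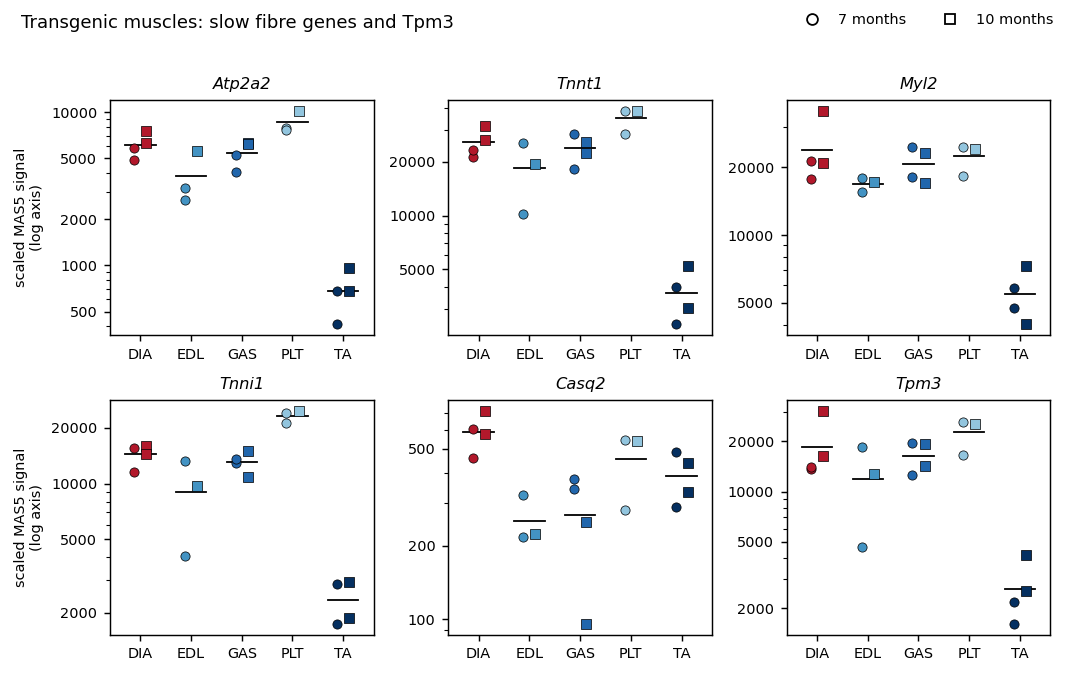
Scaled MAS5 signal (log axis) of 5 slow fibre genes and Tpm3 on each transgenic array, by muscle (abbreviations as in the text; circles 7 months, squares 10 months, line the mean). For all but Casq2 the 4 TA arrays lie below every other array, and for Atp2a2 the PLT arrays lie above the diaphragm arrays.

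Among the tropomyosins Tpm4, a form of non-muscle cells and of regenerating fibres, rose, and the others did not pass. Tpm4 had 1390, 2195, 2401 and 2121 in the diaphragm against a median of 1242 in the limb muscles (0.64 ± 0.14, adjusted p = 0.00537), and the groups overlapped. Tpm3, which encodes slow alpha tropomyosin, had 13590, 14040, 16390 and 30550 in diaphragm. Its limb arrays lay at 1607 to 4182 in TA and at 4634 to 26230 in the other 3 muscles. The difference of 0.80 ± 0.26 did not pass (adjusted p = 0.0649), but did with the replicate block (adjusted p = 0.0281) and without EDL replicate 2 of 7 months (adjusted p = 0.0113). Tpm1, the fast alpha tropomyosin, gave 0.35 ± 0.15 (adjusted p = 0.196), and Tpm2, beta tropomyosin, gave 0.00 ± 0.13 (adjusted p = 0.994). Whether the Tpm3 probe set reads the transgene is not given in the sources used here.

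Of 28 tested genes of glycolysis and glycogen metabolism 13 fell and 1 rose (median -0.73), while 5 fell against PLT alone and 4 within the replicate 2 arrays. The medians against EDL, GAS, PLT and TA were -0.54, -0.79, -0.52 and -0.83. Phkg1, the catalytic subunit of muscle phosphorylase kinase, had 618, 267, 661 and 522 in diaphragm against a lowest of 1434, a median of 2075 and a highest of 3339 in limb muscle. The groups were apart, and the fall was 2.04 ± 0.20 (adjusted p = 1.76e-06), passing against each limb muscle. Phka1, a regulatory subunit of the same enzyme, fell by 1.45 ± 0.33, but its call was lost without diaphragm replicate 2 of 7 months or of 10 months (highest adjusted p = 0.0567). Pygm, the glycogen phosphorylase that this kinase switches on, had 12100 to 15630 against 18090 to 36270 and fell by 0.94 ± 0.13.

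Farther down the pathway Ldha, the muscle lactate dehydrogenase, fell by 0.88 ± 0.12 and the muscle enolase Eno3 by 0.68 ± 0.12, both without overlap. Ugp2, which makes the glucose donor for glycogen, had 1492 to 2996 in diaphragm against 3386 to 6362 in limb muscle and fell without overlap (adjusted p = 0.000259). Gpd2, the mitochondrial glycerol phosphate dehydrogenase, fell by 0.96 ± 0.19. The exception was Ldhb, the lactate dehydrogenase of heart and oxidative fibres, with 4369, 3904, 7306 and 5685 in diaphragm against 680, 1999 and 3889 as the lowest, median and highest limb array. The ranges touched but did not overlap, and Ldhb rose by 1.27 ± 0.24 (adjusted p = 0.00146).

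Genes of fatty acid uptake and oxidation moved the other way. Of 28 tested 16 rose and 1 fell (median 0.76). Fabp3, the fatty acid carrier of heart and oxidative muscle, had 14830, 8649, 17910 and 17580 in diaphragm, against 3730, 5550 and 9641 as the lowest, median and highest limb array. Replicate 2 of 7 months was the low diaphragm array and the one that overlapped the limb range. The difference was 1.32 ± 0.21 (adjusted p = 0.000396). Lpl, the lipase that frees fatty acids from lipoproteins at the vessel wall, had 12340, 13150, 15050 and 17590 against 4905 to 9790 and passed against each limb muscle (0.99 ± 0.13, adjusted p = 4.9e-05).

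Acot1, a thioesterase of fatty acyl-CoA, rose by 1.31 ± 0.21, with 273 to 382 in diaphragm and 21.15 to 179 in limb muscle. Ppara, the nuclear receptor that drives genes of fatty acid oxidation, rose by 1.14 ± 0.19, though its 10-month diaphragm arrays at 848.5 and 729 lay near the highest limb array at 837. Decr1, Hadh and Echs1, enzymes of mitochondrial beta oxidation, rose by 0.99, 0.97 and 0.85 on the log2 scale. Ucp3, a mitochondrial carrier of fast muscle, fell by 0.93 ± 0.22. Against single limb muscles 11 genes of the list passed as higher than in EDL, 16 than in GAS, 3 than in PLT and 12 than in TA. Without diaphragm replicate 2 of 7 months 14 rose and 0 fell. Within the replicate 1 arrays 19 rose and 1 fell, and within the replicate 2 arrays 2 rose and 1 fell.

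Of 61 tested genes of oxidative phosphorylation 1 rose and 0 fell, with a median of 0.02. The one was Cox6a1, the non-muscle form of a cytochrome oxidase subunit, with 3806, 5356, 3468 and 5331 in diaphragm against 1591 to 3638 (0.80 ± 0.18, adjusted p = 0.00666). Of 23 genes of the citrate cycle and mitochondrial biogenesis Idh2 and Dlst rose and Idh3a fell (median 0.06), a share of 3 in 23 that is near that of all genes (10.2%). Idh2, the NADP-dependent isocitrate dehydrogenase of mitochondria, was the large change of the list, with 14340, 9316, 12760 and 18590 in diaphragm against 1502 to 9004 (1.61 ± 0.25, adjusted p = 0.00033). Dlst, a subunit of oxoglutarate dehydrogenase, rose by 0.50 ± 0.15 but lost its call on leaving out any of 13 of the 18 arrays. Idh3a, a subunit of the NAD-dependent isocitrate dehydrogenase, fell by 0.71 ± 0.19 and lost its call without any of 3 diaphragm arrays, replicate 2 of 7 months and both of 10 months (highest adjusted p = 0.116). Mb, the oxygen store myoglobin, gave 0.48 and missed the threshold (adjusted p = 0.0869).

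**Figure D3:**
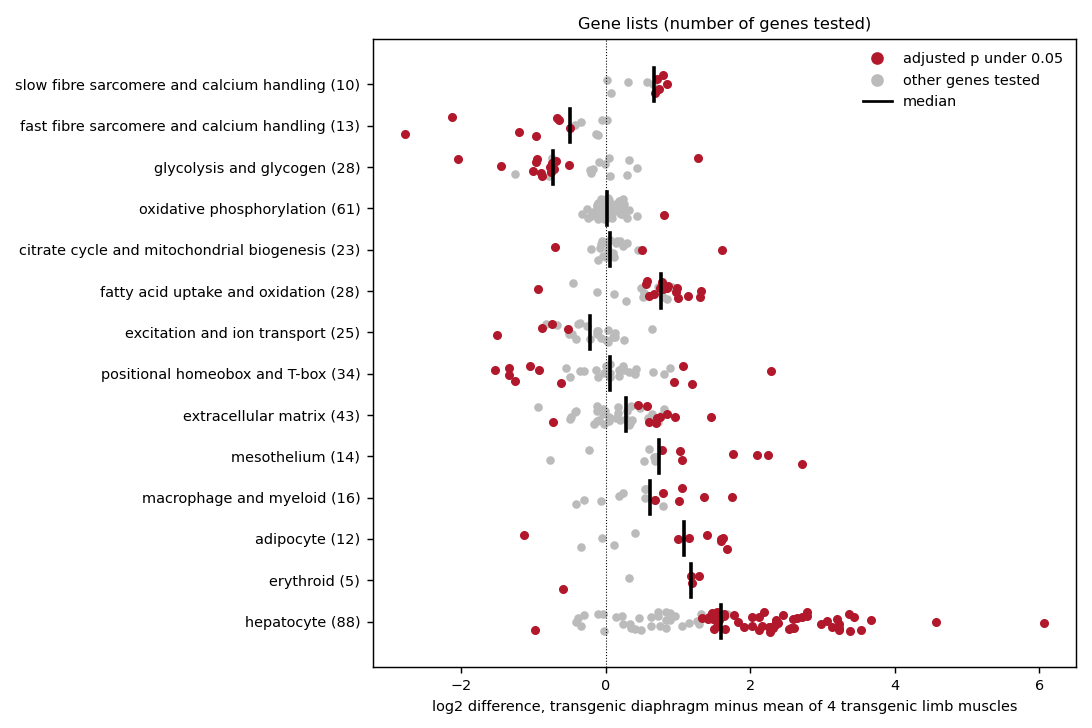
Log2 difference of transgenic diaphragm minus the mean of 4 transgenic limb muscles for each tested gene (points) of 14 lists, with the number tested in brackets. Red points passed an adjusted p of 0.05 and the bar is the list's median. Fast fibre and glycolysis genes lie to the left with medians of -0.50 and -0.73, fatty acid and slow fibre genes to the right with 0.76 and 0.67, and oxidative phosphorylation genes around 0.02.

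Among genes of membrane excitation 4 of 25 fell and 0 rose (median -0.21), and 7 fell with the replicate block. Over all 6464 genes 302 fell (4.67%), and 491 with the replicate block. Cacng1, the gamma subunit of the calcium channel that couples excitation to contraction, had 1596, 642, 1321 and 1122 in diaphragm against 2291, 3520 and 5576 as the lowest, median and highest limb array. The groups were apart, and Cacng1 fell by 1.51 ± 0.20 (adjusted p = 6.4e-05). Clcn1, the chloride channel that stabilises the resting muscle membrane, fell by 0.88 ± 0.25, Kcnj12, an inward rectifier potassium channel, by 0.74 ± 0.20, and Chrna1, a subunit of the acetylcholine receptor, by 0.52 ± 0.16. These 3 calls were each lost on leaving out 1 array, for 4, 2 and 13 of the 18 arrays, with diaphragm replicate 2 of 7 months among those of all 3 (highest adjusted p 0.123, 0.111 and 0.208).

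Mstn, the secreted brake on muscle growth, was among the largest falls. It had 244, 227, 456 and 315 in the diaphragm, against 535, 1070 and 2667 as the lowest, median and highest limb array. No diaphragm array reached the limb range, and the log2 difference was -1.73 ± 0.25 (adjusted p = 0.00015). Of the 13 tested genes of denervation and atrophy the other change was Eif4ebp1, an inhibitor of translation initiation, which rose by 0.76 ± 0.13. With 1 higher and 1 lower of 13, that list was near the share of all genes (10.2%). Actc1, the cardiac alpha actin of developing muscle, fell by 1.47 ± 0.22 on a probe set that can read related actins, and Myf6, a myogenic regulator, fell by 0.73 ± 0.20. These were the only changes among 17 genes of embryonic and developmental sarcomere, a share near that of all genes (10.2%). Myf6 lost its call without diaphragm replicate 2 of 7 months or of 10 months (highest adjusted p = 0.165). A second probe set of Actc1 gave -2.82 ± 0.25.

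Of 19 tested genes of the Z-disc, stretch response and thin filament 16 did not pass, and 1 higher and 2 lower is near the share over all genes. Pdlim1 rose by 0.67 ± 0.19, and Pdlim3 and Pdlim7 fell by 1.01 ± 0.25 and 0.99 ± 0.18. All 3 are adaptors that tie other proteins to alpha-actinin. Other probe sets of Pdlim1 (-0.14) and Pdlim7 (0.26 and 0.02) did not move with those named. Ankrd2 and Csrp3, which shuttle between sarcomere and nucleus on stretch, gave 0.25 (adjusted p = 0.491) and 0.16 (adjusted p = 0.84). Pdlim3 lost its call without diaphragm replicate 2 of 7 months or of 10 months (highest adjusted p = 0.0835), and Pdlim1 without diaphragm replicate 1 of either age or EDL at 10 months (highest adjusted p = 0.124).

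Of 34 tested homeobox and T-box genes 4 were higher and 7 lower, against 5.54% and 4.67% of all genes. Shox2, a homeobox gene of proximal limb development in mice, had 1446, 1830, 1125 and 1373 in diaphragm against 173, 265 and 414 as the lowest, median and highest limb array. The groups were far apart, and Shox2 rose by 2.29 ± 0.18 (adjusted p = 1.61e-07). Hoxa5, which patterns the neck and upper trunk, rose by 1.19 ± 0.16 without overlap. The other 2 that rose were Pax3, a regulator of muscle precursors, and the T-box gene Tbx3.

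Of the Hox genes, which pattern the body axis and limbs, Hoxc9, Hoxa11, Hoxa10, Hoxa9 and Hoxd8 fell. Hoxc9 had 56.7, 52.1, 85.3 and 55.8 in diaphragm, against 88.9, 284 and 433 as the lowest, median and highest limb array. All 4 values lay under the level of 100, so the size of the fall, 1.54 ± 0.23 (adjusted p = 0.00023), depends on the pseudocount. Hoxa11 and Hoxa10 fell by 1.33 ± 0.22 and 1.26 ± 0.28, with limb medians of 160 and 108, and both overlapped between the groups. Hoxc9, Hoxa11 and Hoxa10 reached 100 on no diaphragm array, so they entered the test only through the limb arrays. Their falls are thus in part set by the filter, and the count of lower genes includes them. Hoxd8 fell by 1.34 ± 0.20, mostly against GAS, with 148 to 225 in diaphragm against 1503 to 2552 in GAS, a difference of -3.10. Against PLT it gave -1.22 (adjusted p = 0.0195). Against TA, at 226 to 302, and EDL it gave -0.40 and -0.63 and did not pass (adjusted p = 0.434 and 0.247).

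**Figure D4:**
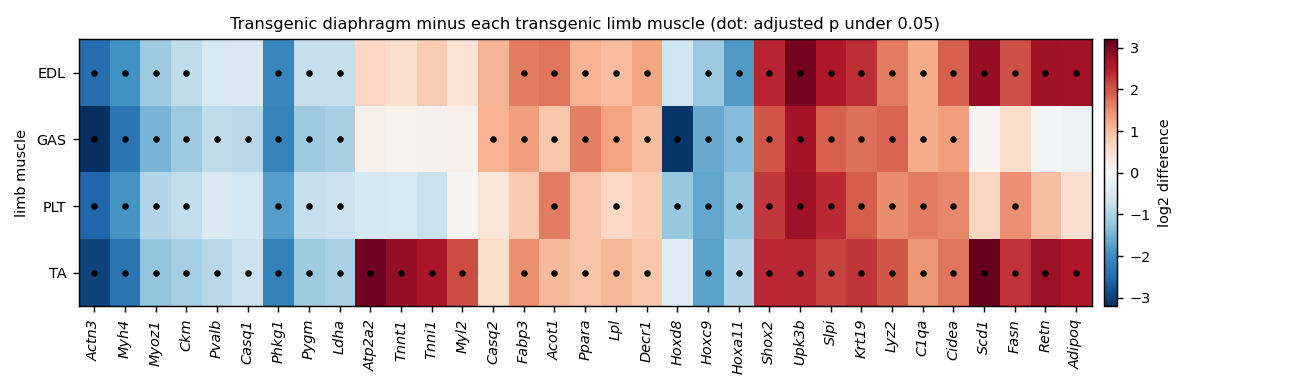
Log2 difference of transgenic diaphragm minus each transgenic limb muscle (rows) for 33 genes (columns), red where diaphragm is higher and blue where it is lower. Black dots mark an adjusted p under 0.05. Actn3, Myh4, Phkg1, Shox2, Upk3b and Lyz2 passed against all 4 muscles, the slow genes Atp2a2, Tnnt1, Tnni1 and Myl2 only against TA, and Hoxd8 against GAS and PLT.

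Of 17 mesothelial genes on the array 14 were tested, of which 7 rose and 0 fell (median 0.74). Krt19, Krt7 and Bnc1 reached 100 on no limb array, so they entered the test only through the diaphragm arrays and had to differ. Among the other 11, 4 rose. Upk3b, a uroplakin of the mesothelial surface, had 1668, 1906, 1223 and 1084 in diaphragm against 91.8, 178 and 329 as the lowest, median and highest limb array. The diaphragm mean was 7.95 times the limb mean, the groups were apart, and the log2 difference was 2.71 ± 0.22 (adjusted p = 1.69e-07). Slpi, a secreted protease inhibitor, rose by 2.25 ± 0.18, with 4.71 ± 0.25 on a second probe set and 0.19 ± 0.25 on another, dim one. Krt19, a keratin of simple epithelia, had 282.5, 317, 192 and 189 against a highest limb array of 68.35 (2.09 ± 0.22).

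Krt8 also rose (1.76 ± 0.27), but its signal of 653.5 on the liver-rich array stood above 200 to 246.5 on the other 3 diaphragm arrays. The summed signal of the list was 10270 to 12850 on the diaphragm arrays and 3248 to 7721 on the limb arrays. Fewer cells of a type and less RNA per cell cannot be told apart in whole muscle. That holds for each cell type below and for fibre types above, and the part that cell composition had in the other differences was not tested.

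Macrophage genes were higher as well, 6 of 16 tested with 0 lower (median 0.61), where 5.54% of all genes were higher. Lyz2, the lysozyme of macrophages and neutrophils, had 2601, 2404, 2165 and 1177 in diaphragm against 307 to 929 in limb muscle (1.75 ± 0.23, adjusted p = 5.89e-05). C1qa, a subunit of complement C1q, had 1108, 1572, 1339 and 776 against 211 to 775 (1.35 ± 0.21). The summed signal of the list was 9896 to 12470 on the diaphragm arrays against 3978 to 8352 on the limb arrays, and without diaphragm replicate 2 of 7 months 3 of its genes rose. Of 8 tested lymphocyte genes 2 rose and 0 fell (median 0.42), while against GAS alone 0 passed (median -0.035). The 2 were Igha and Jchain, made by plasma cells, which rose by 2.49 ± 0.41 and 1.41 ± 0.34 and overlapped between the groups. Their highest GAS arrays lay at 531 and 584.5. The call of Jchain was lost without diaphragm replicate 2 of 7 months or of 10 months (highest adjusted p = 0.0914). Saa3, an acute phase protein made outside the liver, rose by 2.62 ± 0.34, with 1187, 590.5, 919 and 198 in diaphragm and at most 144 in limb muscle.

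Of 12 tested adipocyte genes 7 rose and 1 fell (median 1.08), while against GAS alone 2 rose and 1 fell. Over all genes 5.54% rose and 4.67% fell in the main contrast. The 4 single contrasts share the diaphragm arrays, and the limb muscles were not tested against each other. Those contrasts had medians of 1.33 against EDL and 1.37 against TA but 0.12 against GAS and 0.59 against PLT. Scd1, which makes unsaturated fatty acids, had 9021, 17150, 9482 and 17460 in diaphragm. Its limb arrays lay at 921 to 1908 in TA, 1126 to 3181 in EDL, 7409 to 8908 in PLT and 7602 to 19180 in GAS. Scd1 was thus 3.18 log2 units higher in diaphragm than in TA and 0.04 than in GAS. Retn and Adipoq, adipocyte hormones, gave 2.75 and 2.57 against TA and -0.07 and -0.18 against GAS. Cidea, a lipid droplet protein of brown and other adipocytes, was an exception, with 613, 666, 345 and 552 in diaphragm against 91.6 to 234 in limb muscle (1.62 ± 0.19), and passed against each limb muscle. So did Lpl, described above, which is also on this list. Car3 was the gene of the list that fell, by 1.13 (adjusted p = 0.000299). Adig, adipogenin, which was not on the list, rose by 2.05 ± 0.19 without overlap.

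Of 5 tested red cell genes 3 rose and 1 fell (median 1.18), against 5.54% and 4.67% of all genes. Hba-a1, alpha globin, had 22550, 24640, 31570 and 28580 in diaphragm against 7757, 11910 and 18150 as the lowest, median and highest limb array (1.18 ± 0.18, adjusted p = 0.00023). The groups did not overlap, and Hba-a1 gave 1.13 to 1.25 against the single limb muscles. Alas2, the haem synthesis enzyme of red cells, rose by 1.30 ± 0.18 and Hbb-b2, a beta globin, by 1.20 ± 0.18. Of 14 endothelial genes 2 rose, Eng by 0.95 ± 0.16 and Cldn5 by 0.69 ± 0.17 (median 0.16), against 5.54% of all genes. The call of Cldn5 was lost without diaphragm replicate 2 of 10 months (adjusted p = 0.0837). Of 7 smooth muscle, 10 tendon and 3 lung epithelial genes 0 passed, but with the replicate block 3 of the tendon genes fell, Fmod, Cilp2 and Chad (adjusted p = 0.0138, 0.000847 and 0.0344). Of 10 heart genes 2 fell, Actc1 and Myom2, an M-band protein (1.05 ± 0.16), where 4.67% of all genes fell.

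Matrix genes rose in part, 9 of 43 tested with 1 lower (median 0.29). Fbln1, a fibulin of elastic fibres and basement membranes, had 2661, 2404, 3725 and 2379 in diaphragm against 508 to 1385 in limb muscle (1.45 ± 0.16, adjusted p = 8.03e-06), without overlap and against each limb muscle. Bgn, the small proteoglycan biglycan, rose by 0.96 ± 0.24, Mgp, an inhibitor of calcification, by 0.85 ± 0.18 and Nid2, a nidogen of basement membranes, by 0.75 ± 0.21. Bgn lost its call without diaphragm replicate 2 of 7 months (adjusted p = 0.0531), and Nid2 without any of 3 diaphragm arrays (highest adjusted p = 0.102). Lox, the enzyme that cross-links collagen, fell by 0.73 ± 0.22, which lost its call on leaving out any of 12 of the 18 arrays. Second probe sets of Bgn and Lox gave 0.34 ± 0.15 and -0.37 ± 0.28 and did not pass. Without diaphragm replicate 2 of 7 months 3 of the list rose. Against single muscles 11 rose against TA, 7 against GAS and 1 each against EDL and PLT. Of 14 fibroblast genes 3 rose and 0 fell (median 0.24), Mfap4 by 1.16, Clec3b by 0.84 and Lum by 0.58, with 5 rising under the replicate block and 1 without diaphragm replicate 2 of 7 months. The part of fibroblast content in the matrix genes was not tested.

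Of the remaining genes with the largest rises, Rarres2, the chemoattractant chemerin, had 3469, 3842, 3934 and 3393 in diaphragm against 389, 657 and 962.5 as the lowest, median and highest limb array (2.39 ± 0.17, adjusted p = 3.06e-08). Csrp2, a LIM protein of smooth muscle and stellate cells, rose by 2.15 ± 0.21. A probe set annotated to Wdr92, a gene on no list, rose by 2.21 ± 0.15, with 11240 to 26260 in diaphragm against 2466 to 7603. Among the largest falls were Tspan8, a tetraspanin (2.17 ± 0.22), Cd24a, a surface glycoprotein (2.11 ± 0.21), Tlcd4, a TLC domain protein (2.07 ± 0.24), Rxrg, a retinoid X receptor (1.85 ± 0.21), and Wnt4, a secreted signal (1.62 ± 0.27). None of these 5 overlapped between the groups. A probe set annotated to Aimp2 fell by 1.70 ± 0.26.

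Some genes of stress and turnover also passed, in shares that in the main fit were near that of all genes (10.2%). Of 22 heat shock and unfolded protein genes Hspa1b, Hsp90aa1 and Hspd1 rose, by 1.02, 0.79 and 0.65, and each call was lost on leaving out 1 array, for 8, 13 and 6 of the 18 arrays. Of that list 0 passed without diaphragm replicate 2 of 7 months, and 0 without diaphragm replicate 2 of 10 months, while 7 rose with the replicate block. Of 35 proteasome genes 4 fell (median -0.14), and with the replicate block 6 fell and 1 rose. Psme4 fell by 0.71 ± 0.13 without overlap, and Psmd7, Psmd6 and Psmb7 by 0.58, 0.58 and 0.46. The call of Psmd6 was lost without diaphragm replicate 2 of 10 months (adjusted p = 0.0728) and that of Psmb7 without diaphragm replicate 2 of 7 months (adjusted p = 0.0792). Nr4a1 and Bhlhe40, of 21 immediate early and clock genes, fell by 1.01 and 0.69, and their calls were lost on leaving out any of 2 and 4 of the 18 arrays (highest adjusted p 0.0775 and 0.158). Xist, the RNA of the inactive X chromosome, had 289 to 674 in diaphragm and 75.7 to 521 in limb muscle (adjusted p = 0.372).

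The number of probe sets that passed differed by limb muscle, 405 against EDL (4.63%), 641 against GAS (7.32%), 216 against PLT (2.47%) and 603 against TA (6.89%). EDL and PLT had 3 arrays each, and GAS and TA had 4. With the replicate block the counts were 626, 1105, 346 and 1016. Against all 4 muscles 90 probe sets passed as higher and 55 as lower. Liver-expressed genes were not taken out of these counts. The differences between these counts were not tested.

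The same contrast was then drawn in wild-type mice, to ask whether the transgenic diaphragm stands apart from the limb muscles in its own way. In wild-type arrays 1598 of the same 8756 probe sets passed (18.3%), 761 higher (8.69%) and 837 lower (9.56%). Of the 826 of the transgenic contrast 662 also passed in wild type with the same sign, 4 had the opposite sign, and 0 passed with the opposite sign. Actn3 gave -2.78 in transgenic and -3.49 in wild-type mice, Myh4 -2.12 and -2.61, Shox2 2.29 and 1.75, Upk3b 2.71 and 2.54, Fabp3 1.32 and 0.92, and Phkg1 -2.04 and -2.03. Slow fibre genes had a median of 0.67 in transgenic and 0.99 in wild-type mice, and fast fibre genes of -0.50 and -1.02. Glycolysis genes had a median of -0.73 in transgenic and -0.84 in wild-type mice, and fatty acid genes of 0.76 and 0.55.

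A test of the difference between the genotypes called 1 probe set of 8756 (0.0114%), Sh3bgr, and 672 at an unadjusted p under 0.05. Sh3bgr, an SH3-binding glutamate-rich protein of heart and skeletal muscle, had 6446, 3717, 6186 and 5721 in transgenic diaphragm against 7725 to 11890 in transgenic limb muscle. In wild type it had 1914 to 3906 against 9048 to 12650. The contrast was -0.89 ± 0.14 in transgenic and -2.01 in wild-type mice, a genotype difference of 1.13 ± 0.20 (adjusted p = 0.045). The direction was the same without each array in turn, at 0.98 to 1.31, but the call was lost on leaving out any of 30 of the 36 arrays (highest adjusted p = 0.379). In the transgenic contrast other probe sets of Sh3bgr gave -0.62 ± 0.31 and -0.785 ± 0.33 and did not pass. With the replicate block 50 probe sets passed, 227 without transgenic diaphragm replicate 2 of 7 months and 173 without wild-type diaphragm replicate 1 of 10 months.

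Genes next in that test with a positive genotype difference were Padi2 (1.24), Psmb1 (1.01), Ankrd28 (0.90), Myoz1 (0.69) and Rab12 (0.68), with adjusted p between 0.0728 and 0.0865. Padi2, a peptidylarginine deiminase, had 924 to 1412 in transgenic diaphragm and 196 to 470 in wild-type diaphragm. Psmb1, a proteasome subunit, gave -0.10 in transgenic and -1.11 in wild-type mice, and Myoz1 gave -1.20 and -1.90. Next with a negative difference were Mug-ps1 (-2.90), Wfdc21 (-2.88), Pgrmc1 (-1.84), Perp (-1.73), Slc25a15 (-1.53) and Hebp1 (-1.48), with adjusted p between 0.0662 and 0.0865. The summed hepatocyte signal was 27050 to 369800 on transgenic and 123500 to 558700 on wild-type diaphragm arrays, so it moves with this comparison, and its part in these differences was not tested.

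Liver-expressed genes, given here apart, were among the largest rises on the diaphragm arrays. Of 141 genes of the hepatocyte list on the array 53 were too dim to be tested, and of the 88 tested 54 were higher and 1 lower in diaphragm than in limb muscle (median 1.60). Of the 88, 9 reached 100 on no limb array, among them Apoa1, Ahsg, Fabp1 and Cyp3a11, and so entered the test only through the diaphragm arrays and had to differ. The counts and medians of this list therefore describe the genes that passed the filter. Alb, serum albumin, had 2519, 36690, 4212 and 13630 in diaphragm against 18.1, 73.9 and 548 as the lowest, median and highest limb array (6.07 ± 0.58, adjusted p = 1.76e-06). Apoa1, the main protein of high density lipoprotein, had 609, 16850, 548 and 2453 against 16 to 67.3. All 4 diaphragm arrays held more of both than any limb array, and replicate 2 of 7 months held the most. Ahsg, the plasma protein fetuin, Serpina1e and Serpina1b, antitrypsins that share sequence, Fabp1, the fatty acid carrier of liver, Kng1, kininogen, and Cyp3a11, a drug-metabolising enzyme, rose by 3.67, 3.54, 3.38, 3.44, 3.37 and 3.23 on the log2 scale.

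**Figure D5:**
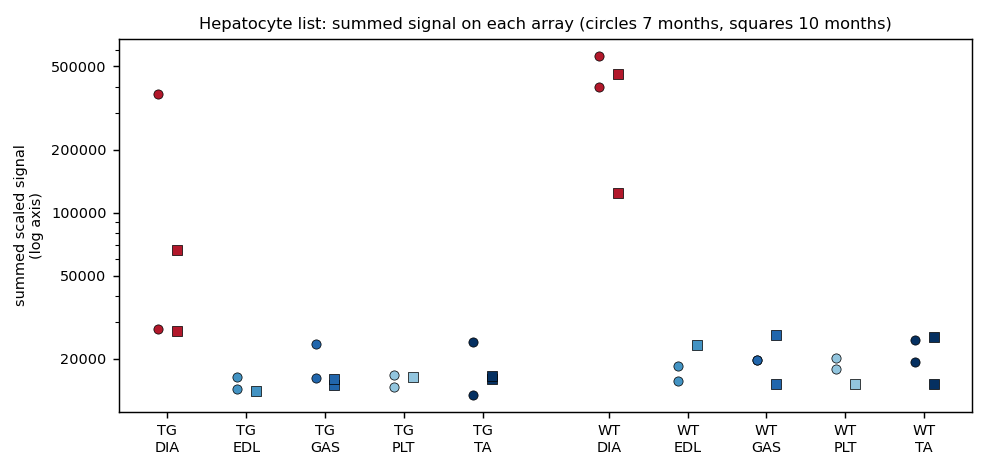
Summed scaled signal (log axis) of 88 hepatocyte genes on each array, transgenic (TG) muscles left and wild-type (WT) muscles right (DIA, diaphragm; circles 7 months, squares 10 months). The transgenic diaphragm arrays lie at 27050 to 369800 and the wild-type ones at 123500 to 558700, above the limb arrays at 13480 to 23960 and 15140 to 26020.

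The same list had a median of 3.53 in the wild-type contrast, with 77 of 88 higher and 1 lower. Without replicate 2 of 7 months 36 of the 88 passed as higher and the median was 0.88. Outside the list 63 higher and 2 lower probe sets that passed had more than 2 times the signal on that array than on each of the other 3 diaphragm arrays. Among them were Apoe, the apolipoprotein of liver and macrophages (3695, 22290, 3871 and 6290 in diaphragm, 2.29 ± 0.42), Cp, ceruloplasmin (425, 3502, 493 and 812, 2.10 ± 0.38), and Tmem176a, a membrane protein (391, 1513, 602 and 431, 1.81 ± 0.33). Leaving out these and the probe sets of the hepatocyte list, 700 of the 826 probe sets remained, 329 higher and 371 lower. Pgrmc1, a progesterone receptor membrane component, passed with 1.11 ± 0.34 but lost its call on leaving out any of 14 of the 18 arrays.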

How the data were processed

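The series held 36 Affymetrix MG_U74Av2 expression arrays, of which 18 carried transgenic muscle. The authors deposited 1 signal intensity per probe set and array, made with MAS5 per the submitters' processing notes, version not given in the sources used here. Those deposited intensities were rescaled to a mean of 500 after trimming 2% at each end, and 66 control probe sets were dropped from 12488. Values were taken as log2(signal + 50), and probe sets reaching 100 on at least 4 of the 18 transgenic arrays were kept. The 5 transgenic muscle means and a shared age effect were fitted with limma 3.58.1 (eBayes with an intensity trend) in R 4.3.3 with statmod 1.5.0, with Benjamini-Hochberg adjusted p-values and a threshold of 0.05. The genotype difference was fitted on all 36 arrays. The main fit was tested on simulated data whose noise was independent between arrays, unlike the deviations by replicate number given below. The other fits were not tested in this way.

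Each gene was read from its probe set of highest mean signal with a single symbol. Genes named were the 12 largest non-overlapping changes in each direction, the 8 largest changes in linear signal in each direction, the tropomyosins, up to 5 changed members of each list, 8 hepatocyte genes and 6 genes in each direction of the genotype difference, not all of which are described. Acta1, Myh7, Hadh, Echs1, Ucp3, Mb, Ankrd2, Csrp3, Hoxa5, Hoxa9, Pax3, Tbx3, Bnc1 and Chad were named after their values were seen. Members and lists were chosen with earlier results of these data known. Replicate numbers follow the labels' records. In 28 of 28 pairs of groups, also of different ages, arrays of the same number deviated together (correlation 0.151 to 0.512, median 0.34). Experiment records were filled for the 10 transgenic arrays of replicate 1 and empty for the 8 of replicate 2. What the number stands for was not tested. It was used as a block in alternative fits, and SEs and p-values are from the fit without it unless stated. Promoters came from RefSeq on GRCm38.p6. Alternatives changed the pseudocount, scaling, filter, block, age term and weights, and left out each array.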

Additional observations from a re-analysis of the deposited data

Results flagged for a closer look

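In 20 of 131 named genes 1 of the 4 transgenic diaphragm arrays lay far from the other 3, by a criterion that chance meets in about 1 in 20 groups. Replicate 2 of 7 months was the high array for the hepatocyte genes Apoa1 (16850), Ahsg (9429), Serpina1e (18190), Fabp1 (7106), Serpina1b (19710), Kng1 (9179) and Cyp3a11 (5614). It was also high for Apoe (22290), Cp (3502), Krt8 (653.5), Mug-ps1 (1573), Pgrmc1 (2855) and Wfdc21 (3367), and for the summed signal of the hepatocyte list (369800). The same array was the low one for Decr1 (847.1). Replicate 1 of 10 months was high for Hoxc9 (85.3) and Hoxa11 (86.14) and low for Retn (253.5). Replicate 2 of 10 months was high for Tpm3 (30550) and low for Alas2 (522.9). Replicate 1 of 7 months was high for Ager (405.8), a receptor of lung epithelium.

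Sh3bgr was noted because its contrast differed between the genotypes in the limma test of that difference, by 1.13 on the log2 scale.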

How the results depend on the processing

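The 826 probe sets of the main contrast became 1257 with the replicate block and 1195 with it as a random block. Arrays of replicate 1 alone gave 531 and of replicate 2 alone 252, and 7-month arrays alone gave 82 and 10-month arrays alone 176, each with fewer samples. Leaving out each array in turn gave 531 to 901. Other pseudocounts, scalings, filters, weights, no trend, no age term, a scan day block and all 36 arrays gave 744 to 1035. Under quantile normalisation 414 were higher and 413 lower, and under median scaling 371 were higher and 451 lower, against 452 and 374. The replicate block gave 626 against EDL, 1105 against GAS, 346 against PLT and 1016 against TA. The 1 probe set of the genotype difference became 52 with a pseudocount of 200, 50 with the replicate block, 81 with it as a random block, 3 without the filter, 2 with a mean signal of at least 200 and 6 with an age effect for each muscle, and 0 to 227 on leaving out each array. The cause of these shifts was not tested. Leaving out, after seeing the data, the hepatocyte list and probe sets high on the liver-rich array left 700. An alternative for arrays with a Gapdh ratio above 3 touched no transgenic array and was not run for the main contrast. In wild type GAS replicate 2 of 10 months (3.32) and PLT replicate 2 of 7 months (3.69) lay above 3. Both entered the wild-type contrast and the genotype test, and leaving them out together was not run. Among the genes named by the rule, none that passed changed sign in the settings run. Tpm2 (-0.20 to 0.19), Psmb1 (-0.35 to 0.07), Rab12 (-0.04 to 0.18), Ager (-0.45 to 0.52), Hebp1 (-0.27 to 0.89), Slc25a15 (-0.51 to 0.84), Mug-ps1 (-0.03 to 3.16), Des (-0.17 to 0.31) and Sftpc (-0.24 to 1.13) did not pass in the main contrast and changed sign. The median of the Z-disc list was 0.09, and -0.07 without diaphragm replicate 2 of 10 months. Signals near 100 limit the size of low genes' differences.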
